A study of Homo sapiens with 4 samples.

Results

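The promoter peaks described here are the places closest to gene starts where a FLAG-tagged ZNF416 protein was mapped in human lung fibroblasts. A peak on an assembled chromosome was counted here if no more than 1000 bp separated its centre from the nearest annotated transcription start site (TSS), on either side. Of the 1386 peaks in the authors' list, 1080 lay on assembled chromosomes, and 329 of these met the rule. That is 30.5% of the chromosome peaks (exact 95% interval 27.7 to 33.3), and the other 751 lay farther from any TSS. The position of the centre chose the peaks, so nearness to a TSS is not a finding. The authors' score, the width and the sequence upstream of the gene were not used in the choice. The annotated classes depend in part on the same distance, so their shares are partly fixed by the rule.

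ChIP-seq, which sequences DNA pulled down with a chosen protein, was run in IMR90 cells, an established line of human lung fibroblasts. All libraries came from IMR90 cells that stably expressed ZNF416-FLAG after lentiviral transduction and puromycin selection, and the cells received no further treatment. The labels give 2 libraries of FLAG pull-down and 2 of input, which is chromatin from the same cells taken without the pull-down, and describe the replicates as biological. The inputs carry the tagged protein too, and a FLAG pull-down from cells without the tag was not among the libraries analysed here, so pull-down of other chromatin cannot be told apart from that of the tagged protein. The promoter that drives the tagged gene in the vector is not given in the sources used here. One peak list on the hg19 build stands for all libraries, with 1 score per peak. No value therefore has a spread between replicates, the depth is unknown, and no test was made. Intervals are exact binomial 95% intervals over peaks or genes, which leave out the error of peak calling and do not make peaks or genes replicates.

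ZNF416 belongs to the KRAB zinc finger proteins, which bind DNA through an array of C2H2 zinc fingers and are best known for recruiting the co-repressor TRIM28. A gene's core promoter is the stretch around its TSS where RNA polymerase II and the general transcription factors assemble. Many human promoters lie in CpG islands, stretches of high GC content that hold CpG dinucleotides close to the number their base composition predicts, and many genes share such a stretch with a neighbour that is read in the other direction. Fibroblasts of the lung make and contract the matrix of the airspace walls, and their activation is followed through genes such as ACTA2, which encodes smooth muscle actin.

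The letters CTGGGCA, on either strand, are the core of the entry for ZNF416 in HOMER's collection of known motifs, and they were looked for in the 250 bases upstream of RefSeq gene starts (GRCh38.p14). Among 62 protein-coding genes whose promoter peak reached this stretch by its deposited distance, 13 windows held 14 matches. The 11 matches in windows that overlap no other gene are printed with 17 bases on each side, because they place the recognition core beside named peaks. Each is printed 5′ to 3′ on the strand that reads CTGGGCA, with the core in capitals.
ITPR1 (chr3:4493280-4493320, minus strand): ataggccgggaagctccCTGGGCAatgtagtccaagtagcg
NOX4 (chr11:89491471-89491511, minus strand): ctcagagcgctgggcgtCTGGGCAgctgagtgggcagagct
TGFBI (chr5:136028827-136028867, minus strand): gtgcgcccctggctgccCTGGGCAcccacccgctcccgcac
ALG9 (chr11:111871369-111871409, minus strand): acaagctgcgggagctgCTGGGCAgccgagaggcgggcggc
UBXN6 (chr19:4455483-4455523, plus strand): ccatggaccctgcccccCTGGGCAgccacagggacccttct
MPI (chr15:74889927-74889967, plus strand): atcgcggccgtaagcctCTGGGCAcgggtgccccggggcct
HHATL (chr3:42701539-42701579, minus strand): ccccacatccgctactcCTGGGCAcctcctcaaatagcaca
ARHGAP31 (chr3:119294147-119294187, minus strand): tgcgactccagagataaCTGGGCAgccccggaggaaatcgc
PPP1R3C (chr10:91633225-91633265, plus strand): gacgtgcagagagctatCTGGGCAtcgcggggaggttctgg
SHISA5 (chr3:48504902-48504942, minus strand): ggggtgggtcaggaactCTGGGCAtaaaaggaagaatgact
RHBDF2 (chr17:76501580-76501620, plus strand): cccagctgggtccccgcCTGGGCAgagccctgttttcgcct

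By the deposited distances and widths, 11 of the 14 matches fell inside the peak and 3 fell outside it, those of MPI, PPP1R3C and SHISA5. Matches read in the gene's own direction numbered 7, as did those on the other strand. The median distance from a match to the peak centre was 54.5 bp, and the values ran from 2 to 144 bp. The gene starts of RefSeq on GRCh38.p14 need not be the TSS that the hg19 annotation used, so these positions are approximate. A match is a description of the letters and not a mapped site. The peaks beside the printed matches had scores from 25 at RHBDF2, a rhomboid-like protein that helps move ADAM17 to the cell surface, to 137 at ITPR1, the calcium release channel of the endoplasmic reticulum.

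CTGGGCA was found in 21.0% of the windows that a promoter peak reached (13 of 62, interval 11.7 to 33.2). It was found in 9.82% of the 163 windows of coding genes whose promoter peak lay elsewhere within 1 kb (interval 5.72 to 15.5) and in 7.05% of all 15843 coding windows (interval 6.66 to 7.46). The share in reached windows thus lay above the share of all windows by more than the counting interval, and the intervals of the reached and the other peak windows overlapped. All windows with a promoter peak together gave 12.9% (29 of 225, interval 8.80 to 18.0). Most windows with a promoter peak thus held no CTGGGCA in these 250 bases.

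The other motifs searched, on both strands, were GGGCGG (the GC box of the SP1 family), CCAAT (bound by NF-Y), TATAAA (the TATA box), TGANTCA (AP-1), CCGGAA (ETS factors) and ATGGCGG (YY1). None of the 7 motifs contains another, but matches of different motifs can share bases. GGGCGG stood in 64.4% of windows with a promoter peak (interval 57.8 to 70.7) and in 56.0% of all. CCAAT was less frequent, at 24.9% (interval 19.4 to 31.1) beside 34.5% of all windows. TATAAA was also less frequent, at 4.44% (interval 2.15 to 8.02) beside 9.23%. These shares pool windows that the peak reached with windows that it did not. In the 62 reached windows, GGGCGG stood in 62.9% (interval 49.7 to 74.8) and CCAAT in 22.6% (interval 12.9 to 35.0). TATAAA stood in 4.84% of them (interval 1.01 to 13.5), and each of these intervals held the share of all windows. For TGANTCA (6.22% beside 5.04%), CCGGAA (21.8% beside 19.3%) and ATGGCGG (3.56% beside 3.09%), the intervals of windows with a promoter peak held the share of all windows.

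**Figure D1:**
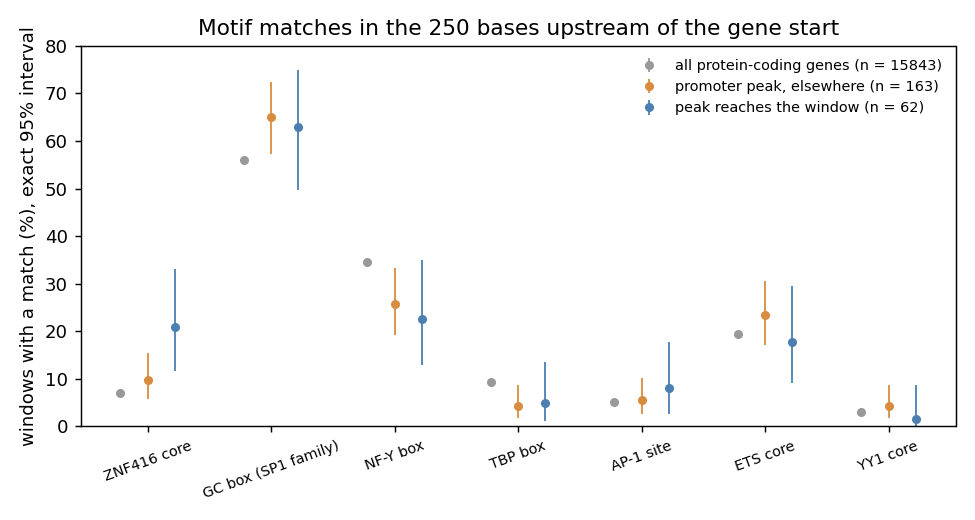
Share of 250-base windows upstream of coding gene starts that hold each motif on either strand (y axis, percent, with exact 95% intervals), for all coding genes, for genes whose promoter peak reaches the window and for genes whose promoter peak lies elsewhere within 1 kb. The ZNF416 core is at 21.0% in reached windows and 7.05% in all windows, while the GC box is found in most windows of every group.

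Windows with a promoter peak were CpG-rich more often than coding windows as a whole. The median GC content of the 225 windows with a promoter peak was 64.8%, against 62.4% over all coding windows. The ratio of observed CpG dinucleotides to the number predicted from base composition had a median of 0.789 with a promoter peak and 0.737 over all. With both measures combined (GC of at least 50% and a ratio of at least 0.6), 73.3% of windows with a promoter peak were CpG-rich (interval 67.0 to 79.0), compared with 60.4% of all coding windows. For windows that the peak itself reached, the share was 69.4% (interval 56.3 to 80.4).

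The windows of 5 genes whose peak reached the window are printed whole to show how this make-up varies. Capitals mark CTGGGCA and the GC box GGGCGG, each in either orientation, and the last base is the one before the gene start.
RNF187 (chr1:228487132-228487381, plus strand): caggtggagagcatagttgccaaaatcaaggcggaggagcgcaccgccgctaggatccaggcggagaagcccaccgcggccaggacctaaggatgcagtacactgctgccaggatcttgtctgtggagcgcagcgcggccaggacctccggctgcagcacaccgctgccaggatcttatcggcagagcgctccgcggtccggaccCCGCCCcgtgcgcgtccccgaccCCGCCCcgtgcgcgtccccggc
CDCA7 (chr2:173354622-173354871, plus strand): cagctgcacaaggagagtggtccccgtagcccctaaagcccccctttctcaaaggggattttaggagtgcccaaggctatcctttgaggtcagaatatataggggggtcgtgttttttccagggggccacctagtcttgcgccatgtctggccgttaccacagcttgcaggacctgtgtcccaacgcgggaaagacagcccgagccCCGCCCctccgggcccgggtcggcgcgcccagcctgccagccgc
RIOK2 (chr5:97183248-97183497, minus strand): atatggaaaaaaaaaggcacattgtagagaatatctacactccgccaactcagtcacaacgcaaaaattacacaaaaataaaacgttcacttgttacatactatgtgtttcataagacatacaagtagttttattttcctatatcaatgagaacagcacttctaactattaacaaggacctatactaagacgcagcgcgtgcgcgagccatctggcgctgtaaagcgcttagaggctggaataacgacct
RPL32 (chr3:12841566-12841815, minus strand): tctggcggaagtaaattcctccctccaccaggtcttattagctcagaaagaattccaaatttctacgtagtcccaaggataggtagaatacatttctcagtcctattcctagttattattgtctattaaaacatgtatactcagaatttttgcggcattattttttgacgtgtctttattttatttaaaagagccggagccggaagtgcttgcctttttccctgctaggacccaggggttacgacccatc
TGFBI (chr5:136028738-136028987, plus strand): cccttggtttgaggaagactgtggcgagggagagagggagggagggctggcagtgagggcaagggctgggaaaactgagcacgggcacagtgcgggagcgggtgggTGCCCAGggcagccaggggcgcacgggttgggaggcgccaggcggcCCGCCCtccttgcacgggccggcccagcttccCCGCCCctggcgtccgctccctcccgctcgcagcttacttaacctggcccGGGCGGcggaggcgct

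RNF187 encodes a RING finger ubiquitin ligase, CDCA7 a zinc finger protein needed for DNA methylation in heterochromatin, RIOK2 a kinase of ribosome maturation, RPL32 a protein of the large ribosomal subunit and TGFBI a matrix protein induced by TGF-beta. GC made up 69.6% of the RNF187 window, 62.8% of the CDCA7 window and 72.8% of the TGFBI window. The RPL32 window had 40.4% and the RIOK2 window 38.8%. Over the 10 windows taken by the naming rule, GC ran from 36% at CDC40 to 76% at SLMO2-ATP5E, and 3 were under 50%. The peak centres lay 161 bp upstream of the TSS at RNF187 (score 241), 171 bp at CDCA7 (score 198), 179 bp at RIOK2 (score 188), 102 bp at RPL32 (score 166) and 195 bp at TGFBI (score 109).

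Across all 329 promoter peaks, the authors' score had a median of 62 (interval 56 to 63), with quartiles of 42 and 83 and a range from 13 to 337. The scale of the score is not stated, so it is used only to rank and describe peaks within this list. The 751 chromosome peaks beyond 1 kb had a median of 59 (interval 57 to 63), 3 units lower and with an overlapping interval. Scores of 100 or more were held by 54 promoter peaks, or 16.4% (interval 12.6 to 20.9), and by 120 or 16.0% of the other chromosome peaks. Promoter peaks were thus about as strong as peaks elsewhere on the chromosomes. Among these and outside repeats, peaks inside genes had a median of 60.5, and peaks between genes and at gene ends 58. Peaks over repeats had 57.5.

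Promoter peaks were narrow. Their median width was 135 bp (interval 130 to 142), with quartiles of 116 and 182, and the other chromosome peaks had a median of 140 bp (interval 135 to 146). A width of 200 bp or more was reached by 66 promoter peaks, 20.1% (interval 15.9 to 24.8), and by 25% of the others (interval 22 to 28.3). Only 7 promoter peaks, or 2.13%, were 400 bp or wider. Score and width rose together weakly over the 329 peaks (Spearman's rho 0.228), which share 1 peak calling run, and the relation is given as a description.

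A pair of promoter peaks stood apart in width and also had the highest scores of the set, with ARID5B next at 319. The highest score, 337, belonged to the peak at JUNB, which pairs with FOS proteins to form AP-1, at chr19:12902613-12903626. It was 1014 bp wide and lay in the gene's single exon, with its nearer edge 312.5 bp downstream of the TSS, so it covered the gene body rather than the start. The widest promoter peak, 1292 bp with a score of 334, lay at EEF1A1, the elongation factor that brings aminoacyl-tRNA to the ribosome, at chr6:74229792-74231083. It spanned the TSS, and its centre was in intron 1 of 7 in a labelled CpG island. The EEF1A1 promoter with its first intron is also widely used to drive genes in lentiviral vectors, and whether vector DNA took part in this peak was not tested.

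The next widths were far smaller. The peak at DMXL2, a regulator of the vacuolar proton pump, was 463 bp wide with a score of 232. The peaks at OSR2, a zinc finger transcription factor of limb and palate development (448 bp, score 94), and CDKN2C, an inhibitor of CDK4 and CDK6 (436 bp, score 91), were as wide but weaker. Those at UBXN6 (408 bp, score 88) and DNMT1 (400 bp, score 109) complete the set of 7. Width alone thus did not mark the strongest peaks.

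**Figure D2:**
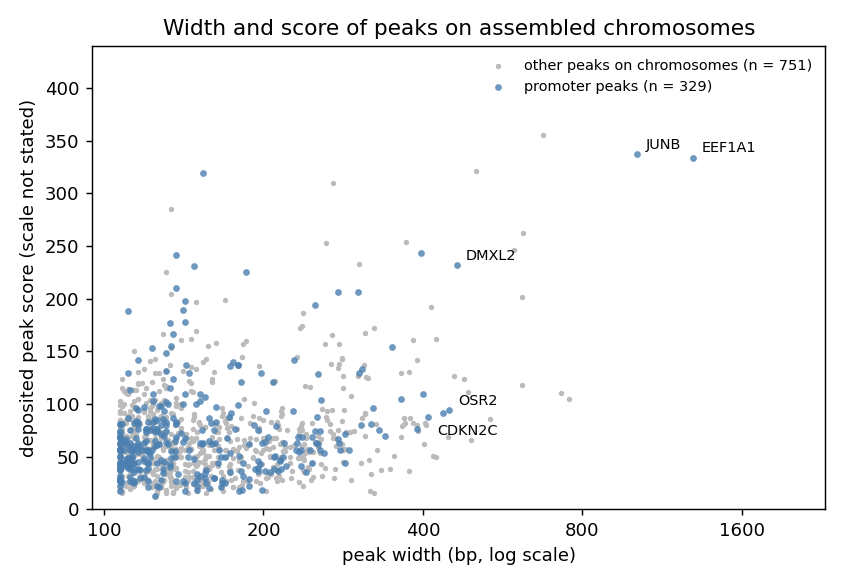
Width (x axis, bp, log scale) against the authors' score (y axis, scale not stated) of each promoter peak (blue) and each other chromosome peak (grey), with the 5 widest promoter peaks labelled. JUNB and EEF1A1 lie apart at the top right, and most promoter peaks lie under 200 bp wide, mixed with the other peaks.

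The highest scores belonged both to peaks under 200 bp wide and to wider ones, while most promoter peaks were under 200 bp. The peak at ARID5B, a chromatin-binding cofactor of a histone demethylase, scored 319 with a width of 154 bp and lay 357 bp upstream of the TSS. At IKBIP, a gene that faces the apoptosome gene APAF1, the score was 243, the width 397 bp and the centre 175 bp downstream. ABCB6, a porphyrin transporter, had a score of 231 in its first exon 808 bp downstream. The peak at ENY2, a subunit of the SAGA and TREX-2 complexes, scored 225 and lay 100 bp downstream. ERI1, a 3′ exonuclease of histone messages, had a score of 206 and a width of 301 bp at 290 bp upstream.

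Completing the 15 highest scores were SLMO2-ATP5E (210), a transcript that reads through 2 neighbouring genes, the antisense RNA PCGF3-AS1 (206) and SHBG (194), the sex hormone carrier, whose peak was annotated to its neighbour SAT2. CPNE9, a member of the copine family of calcium-dependent lipid-binding proteins, scored 189, and RIOK2 scored 188. Of these 15 peaks, those at RNF187, CDCA7 and RIOK2 lay within 200 bp upstream of the TSS.

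The centres were not spread evenly across the 2000 bp. Within 250 bp of the TSS lay 140 of them (42.6%, interval 37.1 to 48.1), and within 500 bp lay 236 (71.7%, interval 66.5 to 76.5). The mean number per 100 bp was 12.6 upstream and 20.3 downstream, while in the neighbouring stretch from 1 to 2 kb it was 1.7 upstream and 3.6 downstream. Peaks thus thinned out toward the edge of the window on both sides. Just inside the limit were KDM2A (score 128, 994 bp downstream), FLNC (62, 994 bp upstream) and ACY1 (13, 991 bp upstream). Just outside it were IFITM3 (31, 1018 bp upstream), GNAQ (76, 1019 bp downstream) and MICALL2 (73, 1040 bp downstream).

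More centres lay downstream than upstream of the TSS, at 203 against 126, which is 61.7% (interval 56.2 to 67.0). The other chromosome peaks were divided alike, with 59.3% downstream of their nearest TSS (interval 55.6 to 62.8). Among promoter peaks at or above the list's upper quartile of score, 55.4% were downstream. The fullest 100 bp stretch was that from 100 to 200 bp downstream, with 52 centres. In a finer count by 50 bp, the stretch from 100 to 150 bp held 35, including centres at exactly 100 bp that the 52 leave out. Directly upstream of the TSS the peaks were few: 8 centres lay within the first 100 bp upstream and 32 within the first 100 bp downstream. At or above the upper quartile of score these counts were 5 and 6, so the difference rested on the weaker peaks. The upstream side filled again farther out, with 20 centres from 100 to 200 bp and 27 from 200 to 300 bp. Peaks that covered the TSS itself numbered 31 (9.42%, interval 6.49 to 13.1), and their median width was 181 bp.

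**Figure D3:**
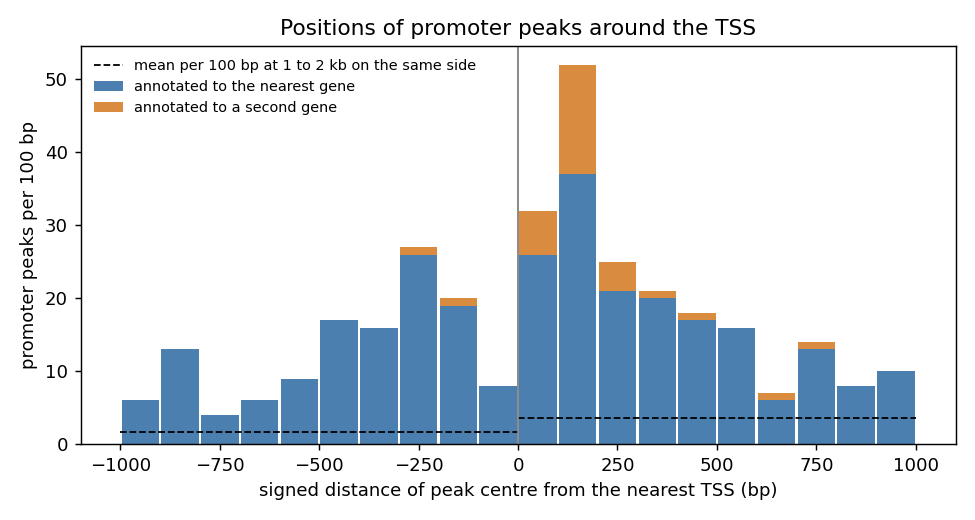
Number of promoter peaks per 100 bp (y axis) by signed distance of the peak centre from the nearest TSS (x axis, bp, negative upstream), split into peaks annotated to the nearest gene and peaks annotated to a second gene, with the mean at 1 to 2 kb as dashed lines. The bar from 100 to 200 bp downstream is the highest with 52 peaks, and the bar just upstream of the TSS holds 8.

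The few peaks close upstream of a TSS had the highest median score. The split at 200 bp was not among the planned results and was not varied, so it is a description only. Within 200 bp upstream, 28 peaks had a median score of 89.5 (interval 65 to 113), and 14 of them (50%, interval 30.6 to 69.4) reached 87, the upper quartile of the whole list. Within 200 bp downstream, 84 peaks had a median of 63 (interval 54 to 70), and 16 of them (19%, interval 11.3 to 29.1) reached it. Farther than 200 bp the medians were 59.5 upstream (n = 98, interval 54 to 68) and 56 downstream (n = 119, interval 45 to 62), with 19.4% and 21.0% at or above the upper quartile. The interval of the close upstream median overlapped those within 200 bp downstream and beyond 200 bp upstream, and lay above that beyond 200 bp downstream. Over all 329 peaks the score fell only weakly with distance (Spearman's rho -0.129, a description over peaks of 1 list).

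Among the close upstream peaks were those at TAF6, a subunit of the TFIID complex that recognises core promoters (score 177, 91 bp upstream), CKAP2, a mitotic spindle protein (137, 64 bp) and NOX4, an NADPH oxidase (121, 61 bp). The 5 centres closest to a TSS lay at ITPR1 (5 bp downstream, score 137), HHATL (5 bp upstream, 64), TP53I3 (11 bp downstream, 107), RSPH3 (12 bp downstream, 81) and TRIM59 (13 bp downstream, 53). All 5 spanned the TSS. The weakest promoter peak of the whole set was that at ACY1, an aminoacylase, with the list's minimum score of 13.

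**Figure D4:**
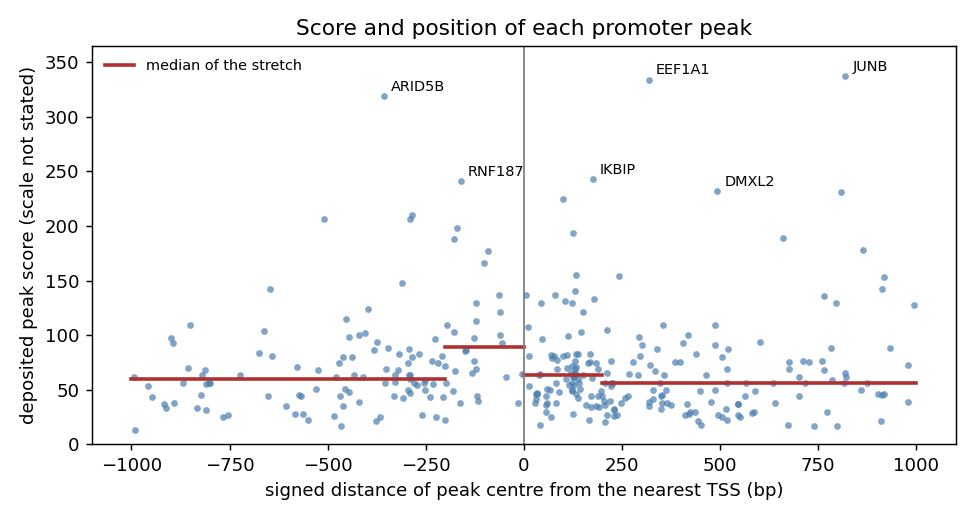
Authors' score (y axis, scale not stated) of each of the 329 promoter peaks against the signed distance of its centre from the nearest TSS (x axis, bp), with red lines at the medians of the stretches within 200 bp and beyond 200 bp on each side. The line within 200 bp upstream is at 89.5, above the other stretches at 56 to 63. The split at 200 bp was not planned.

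By the authors' annotation, 187 promoter peaks (56.8%) were in the promoter class. For the 95 whose annotated and nearest transcripts were identical, this class ran from 994 bp upstream to 100 bp downstream of the TSS. Another 29 of the 187 lay over 100 bp downstream of the nearest TSS, and 19 of these were annotated to another gene. A further 86 (26.1%) were in introns, 21 (6.38%) in 5′ UTRs, 20 (6.08%) in other exons and 10 (3.04%) in exons of non-coding RNAs. The remaining 5 were at the end of a gene or in a 3′ UTR. Nearly all intronic ones, 82 of 86, were in the first intron, which nearness to a TSS largely fixes. Median scores were 62 in the promoter class, 56 in introns, 64 in exons, 61 in 5′ UTRs and 52.5 in non-coding exons, and all of these intervals overlapped.

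A CpG island was named for 35 promoter peaks, 10.6% (interval 7.52 to 14.5), and every one of these was intronic. The annotation gave this label to 0 of the 297 chromosome peaks outside introns and intergenic stretches, so it can be read only among introns. There, 40.7% of promoter peaks carried it (35 of 86, interval 30.2 to 51.8), compared with 4.37% of intronic peaks beyond 1 kb (16 of 366, interval 2.52 to 7). Repeats showed the opposite division: 0 of 86 intronic promoter peaks were annotated to a repeat (upper limit 4.2%), against 92 of 366 beyond 1 kb (25.1%, interval 20.8 to 29.9). Intronic peaks beyond 1 kb lay at a median of 17430 bp from a TSS, against 430.5 bp for intronic promoter peaks. Both contrasts thus set introns near a TSS beside distant ones, a difference that the distance rule partly fixes.

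Examples in labelled islands were EEF1A1, CPNE9, USP13, SLC35A1, EFEMP2 and DNMT1. Intronic promoter peaks with the label had a median score of 56 (n = 35, interval 44 to 81) and a median width of 150 bp (interval 114 to 188). Those without it had a median score of 46 (n = 51, interval 38 to 64) and a median width of 127 bp (interval 120 to 152). The label went with values 10 score units and 23 bp higher, and both pairs of intervals overlapped. The labelled peaks also lay closer to the TSS, at a median of 334 bp against 515 bp.

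By the authors' gene type, protein-coding genes were nearest to 287 promoter peaks, 87.2% (interval 83.1 to 90.6). The share was 72.3% for the other chromosome peaks (interval 69.0 to 75.5). The remaining 42 had a median score of 56, against 62 for the coding ones, with overlapping intervals. RefSeq types differ from the authors' at some peaks, such as that of LINC03124, which the authors' annotation calls protein-coding. By RefSeq type, the non-coding neighbours comprised 31 long non-coding RNAs, 1 antisense RNA, 4 transcribed pseudogenes, 3 small nucleolar RNAs and 3 microRNAs. After SLMO2-ATP5E and PCGF3-AS1, the strongest were ZNF232-AS1 (score 103), the pseudogene PDPR2P (93), the small nucleolar RNA SNORA91 (93) and PHC2-AS1 (86). ZNF566-AS1 (83), LINC03124 (77), IL6R-AS1 (74) and MIR1249 (74) complete the 10 strongest.

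The peaks fell on 310 genes, of which 19 had 2 promoter peaks and none had more. At TSPAN4 the peaks were measured from different starts of the gene. Of the other 18, both peaks lay on 1 side of the TSS at 15, downstream at 8 and upstream at 7. HHATL, SNORD116-8 and WASF2 had 1 on each side. The centres were 282 bp apart in the median, from 171 bp at HHATL to 1344.5 bp at WASF2, an actin regulator, and at 16 genes they were 500 bp apart or less. Such pairs were often unequal in score.

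At ABCB6 the scores were 231 and 49 with 218.5 bp between the centres, and at RNF187 they were 241 and 86 with 222 bp between them. TMEM242, an assembly factor of ATP synthase, had 178 and 56. GSN, the actin-severing protein gelsolin, had 129 and 36. At TP53I3, a quinone oxidoreductase induced by p53, the scores were 107 and 40. Pairs of more equal score were found at SST (83 and 75), the hormone somatostatin, at ARHGAP31 (68 and 63), a GTPase-activating protein of CDC42 and RAC1, and at USP3 (63 and 62), a deubiquitinase of histones. The other genes with a pair were ZNF254, ZNF546, ZNF790, ALDH3B1, TSPAN4, CNOT8, IFITM3 and UQCR11, with scores from 25 to 104.

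At 31 of 326 promoter peaks with a matched transcript (9.51%, interval 6.55 to 13.2), the annotation named another gene than the one with the nearest TSS. Where both strands were known, the genes ran in opposite directions in 21 of 23 cases (91.3%), as at promoters that serve a pair of divergent genes. In 29 of the 31 cases the centre lay downstream of the nearest TSS, which the annotation's preference for its promoter class partly fixes. Both genes were protein-coding at 15 of them, and 27 of the 31 peaks were in the promoter class. Their median score was 56, against 62 for the other promoter peaks, and the intervals overlapped.

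IKBIP with APAF1 (score 243) and SHBG with SAT2 (194) were the strongest of these. CDC40, a splicing factor, with WASF1 followed at 113, and the mitochondrial GTPase NOA1 with POLR2B, a large subunit of RNA polymerase II, had 87. SCO2 with NCAPH2, where the peak was annotated to the end of a gene, and ZNF566-AS1 with ZNF566 each had 83. ACTA2 with FAS, the death receptor, had 75, and IL6R-AS1 with IL6R, where the peak was annotated to an intron, had 74. By gene position, 44 of the 225 coding genes with a promoter peak and a known window had a neighbour starting in the opposite direction within 1 kb (19.6%, interval 14.6 to 25.3). Over all 15843 such genes the share was 17.4%, inside that interval.

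Of 20056 protein-coding genes in the RefSeq table, 269 had a promoter peak, a background of 1.34% (interval 1.19 to 1.51). Lists of genes by function were read against this share. They were compiled with earlier results of these data known, so the counts describe the lists and support no claim about them. With only a few genes each, most intervals are wide, and the interval of every protein-coding list holds the background.

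Genes of zinc finger proteins named ZNF, the family to which ZNF416 belongs, had a promoter peak in 11 of 509 cases (2.16%, interval 1.08 to 3.83), with a median score of 53.5 over 14 peaks. The strongest were ZNF233 (129), ZNF181 (121), ZNF790 (103) and ZNF546 (81). Peaks annotated to ZNF566, ZNF230 and ZNF473 had the TSS of another gene nearest and were not counted. All but 1 of the 11 lay on chromosome 19, where such genes stand in large clusters. There the share was 4.07% (10 of 246, interval 1.97 to 7.35), against 1.16% of the other coding genes of chromosome 19 (14 of 1205, interval 0.637 to 1.94) and 0.380% of ZNF genes elsewhere (1 of 263, interval 0.00963 to 2.10). Chromosome 19 held 31 promoter peaks among its 76 peaks (40.8%, interval 29.6 to 52.7).

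Among fibroblast genes, extracellular matrix and crosslinking genes counted 3 of 54 (5.56%, interval 1.16 to 15.4). They were TGFBI (109), EFEMP2 (67), which helps assemble elastic fibres, and LOXL2 (56), a crosslinking oxidase. Contractile and actin-binding genes counted 2 of 36 (5.56%, interval 0.680 to 18.7), ACTA2 (75) and FLNC (62), a filamin. The peak nearest to ACTA2, at chr10:90750910-90751062, was annotated to FAS, whose own peak at chr10:90749999-90750178 scored 17. Its distance of 168 bp was measured from an annotated ACTA2 start that faces FAS. Whether that start is the one these cells use was not tested, so the peak is not placed at the working ACTA2 promoter. TGF-beta and BMP signalling genes counted 1 of 43 (2.33%), TGFBR3 (44), the co-receptor betaglycan. Small GTPases and their regulators counted 2 of 200 (1.00%), ARHGAP31 (68) and ARHGAP22 (56).

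Stress and signalling lists gave small counts. Oxidative stress genes under NRF2 counted 2 of 24 (8.33%, interval 1.03 to 27.0), NQO1 (74), a quinone reductase, and OSGIN1 (64). Targets of p53 counted 2 of 28 (7.14%, interval 0.877 to 23.5), TP53I3 and FAS. A peak annotated to CDKN1A (score 47) lay nearest to the TSS of the non-coding RNA DINOL and was not credited to CDKN1A. Interferon-induced genes counted 2 of 39 (5.13%), the membrane proteins IFITM3 (104 and 47) and IFITM2 (17). The list of mitogen-activated and cyclin-dependent kinases and their partners counted 4 of 91 (4.4%, interval 1.21 to 10.9): MAPK11 (115), CDKN2C (91), the scaffold MAPK8IP2 (22) and MAPK8 (17). Immediate early and AP-1 genes counted 1 of 43 (2.33%), JUNB. Heat shock proteins and co-chaperones counted 2 of 81 (2.47%), HSPB8 (39) and DNAJC6 (27).

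Housekeeping lists lay on both sides of the background. Translation factors counted 3 of 70 (4.29%, interval 0.893 to 12.0), EEF1A1, EIF2B5 (96), a subunit of the exchange factor of eIF2, and EIF2AK4 (44), a kinase of eIF2. Histone and chromatin modifiers counted 3 of 141 (2.13%): ARID5B, KDM2A (128), a histone demethylase that binds unmethylated CpG, and SMARCAD1 (44). Respiratory chain and ATP synthase genes counted 2 of 104 (1.92%), UQCR11 (68) and ATP5MF-PTCD1 (62). Solute carriers counted 7 of 386 (1.81%), led by SLC35A1 (105), the CMP-sialic acid transporter, and SLC24A1 (62), SLC60A2 (50) and SLC44A1 (50). Ubiquitin enzymes and adaptors counted 5 of 383 (1.31%), led by RNF187 (241), FBXL12 (131), USP13 (109) and USP3 (63).

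Cell cycle genes counted 1 of 51 (1.96%), CDKN2C again, and DNA repair genes 1 of 54 (1.85%), OGG1 (80), the glycosylase of oxidised guanine. Ribosomal protein genes counted 1 of 102 (0.980%) (interval 0.0248 to 5.34), RPL32. Homeobox genes counted 1 of 104 (0.962%), BARHL1 (44), and splicing and RNA-binding proteins 1 of 164 (0.610%), HNRNPH1 (27). No promoter peak was found for 5 lists. They were histones (0 of 92, upper limit 3.93%), mitochondrial ribosomal proteins (0 of 77, 4.68%), proteasome subunits (0 of 50, 7.11%), NF-kappaB targets (0 of 29, 11.9%), and markers of epithelial, endothelial and immune cells (0 of 28, 12.3%).

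**Figure D5:**
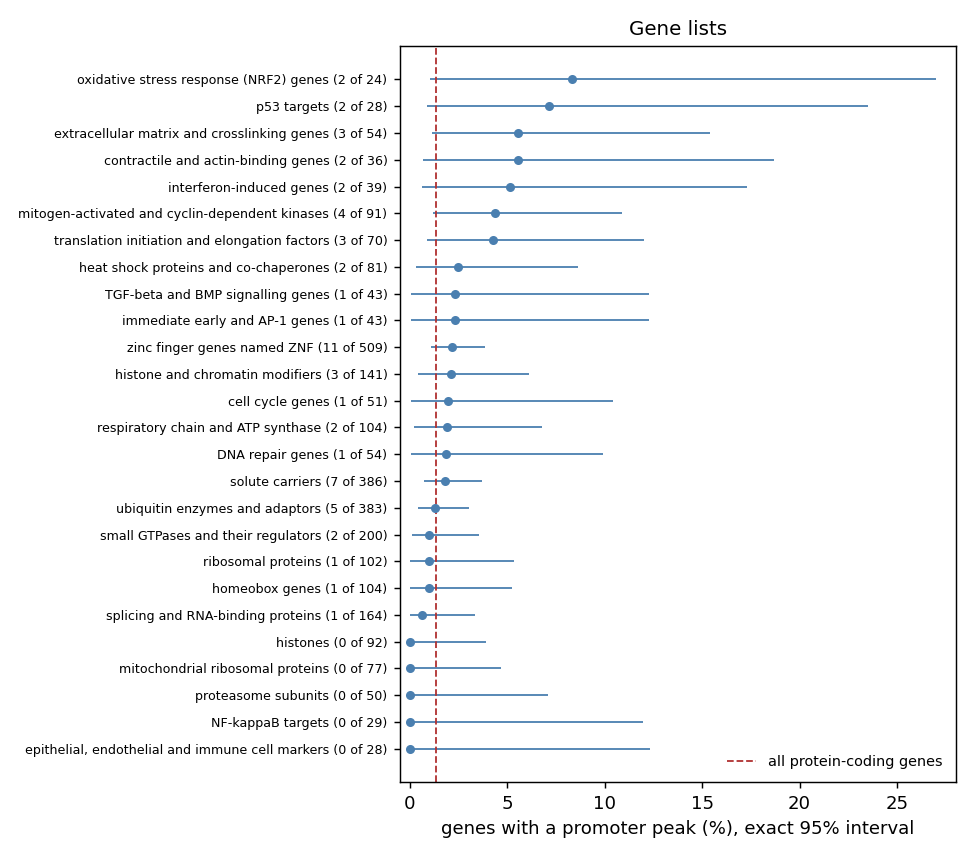
Share of each list's genes with a promoter peak (x axis, percent, points with exact 95% intervals), with the count of genes in brackets and the background of all protein-coding genes (1.34%) as a dashed red line. All intervals reach across the line, and 5 lists are at 0.

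Lists of non-coding RNA genes had small shares of their own many members. Long intergenic and antisense RNA genes counted 23 of 4958 (0.464%, interval 0.294 to 0.695). MicroRNA genes and their host genes by name counted 5 of 2000 (0.250%), MIR1249 (74), MIR212 (63), MIR6501 (50) and the hosts MIR137HG (62) and MIR7-3HG (62). The annotated start of a microRNA gene is that of its hairpin, which can lie far from the start of the primary transcript. Small nucleolar and spliceosomal RNA genes counted 2 of 611 (0.327%), SNORA91 (93) and SNORD116-8 (30 and 28).

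Promoter peaks were found on 23 of 24 chromosomes. Over all chromosomes they made up 30.5% of the peaks. On chromosome 3 their share was 47.4% (27 of 57, interval 34.0 to 61.0), and this was the one chromosome whose interval did not hold the overall share. Chromosome 21 had a larger share from 5 of 9 peaks (55.6%, interval 21.2 to 86.3). Chromosome 9 had a share of 19.2% (10 of 52, interval 9.63 to 32.5). With 24 such intervals side by side, an interval such as that of chromosome 3 can miss the overall share by counting error alone.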

How the data were processed

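The study mapped FLAG-tagged ZNF416 in IMR90 cells with 2 ChIP and 2 input libraries. The submitters' processing notes name Bowtie2, Picard, MACS2, deepTools and HOMER and the hg19 build, without versions or settings. Per the file header, the authors annotated a list of narrow peaks with blacklisted regions removed, using HOMER. No source used here says whether libraries were pooled for peak calling. The deposited score of each peak has no stated scale or normalization, and the deposited distances run from the peak centre to the nearest TSS. The table holds no counts, so depth and its precision are unknown.

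Peaks on assembled chromosomes with a centre within 1000 bp of a TSS were kept, and widths count both end positions, as HOMER's output starts counting at 1. Genes were matched by identifier to a RefSeq table (GRCh38.p14), which covered 329 of 329 peaks and gave names, types and neighbours. Its coordinates were not compared directly with those on hg19. For the motif windows, hg19 distances and widths were laid on its gene starts, so these positions are approximate. Shares have exact Clopper-Pearson 95% intervals and medians exact binomial order-statistic intervals, computed with Python 3.11.15, pandas 2.3.3 and scipy 1.17.1 and tested on simulated data. Motifs were searched on both strands of the 250 bases before the gene start in the RefSeq promoter table, which held 225 of the 269 coding genes with a promoter peak.

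The members and the 29 gene lists were chosen with earlier results of these data known. Named genes are those of the 15 highest scores, up to 4 per list, all genes with 2 promoter peaks, the 8 strongest peaks annotated to a second gene, the 5 widest, the 10 strongest non-coding genes, the 3 peaks on each side of the 1000 bp limit and the 5 closest to a TSS. Genes with a printed motif match, the remaining peaks of 400 bp or more and the genes of the closing section were named after their values were seen. So were TAF6, CKAP2, NOX4, MIR6501, DINOL, CDKN1A, ZNF230 and ZNF473. There were no comparisons with a test, because no library has values of its own. As alternatives, 7 other choices of score, window and neighbouring peaks were tried.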

Additional observations from a re-analysis of the deposited data

How the results depend on the processing

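The choice of peaks was changed in 7 ways. Keeping only scores at or above the list's median of 62 left 165 promoter peaks with a median score of 83, 14 of them annotated to a second gene, and 140 coding genes. Keeping only scores at or above the upper quartile of 87 left 74 peaks with a median score of 122.5, a median width of 153 bp, 93.2% with a protein-coding nearest gene, 55.4% downstream, 4 annotated to a second gene, and 69 coding genes. A window of 250 bp left 140 peaks, 72.9% of them downstream, and 118 coding genes. The promoter class in place of the distance gave 187 peaks, 32.6% downstream, 0% with a CpG island label and 155 coding genes. That class never carries the label, and where its transcript was also the nearest it ended 100 bp downstream. With a window of 500 bp, with the strongest peak of each gene, and with peaks within 500 bp merged, 0 of the main values left their interval, or, for counts, moved by over 1.5 times.

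The median score of labelled minus all unlabelled promoter peaks changed sign, from -6 to 8.5 at or above the median score and to 4 within 500 bp, and the width difference changed from 16 to -21 bp within 250 bp. The intervals of the medians behind the main differences overlapped. After the data had been seen, 4 further values were added under the same alternatives. Among them, the labelled share of intronic promoter peaks rose from 40.7% to 54.0% within 500 bp, 61.1% within 250 bp and 58.8% at the upper quartile, and the counts just upstream against just downstream (8 and 32 within 100 bp) became 5 and 6 at the upper quartile. Of the other values, 185 moved little and 94 moved, most of them gene list counts of a few genes. Leaving out a library was not possible, because the libraries have no values of their own here. No paired analysis was possible because 1 peak list stands for all libraries and no result comes from a test.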

Other observations

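Promoter peaks were also found at genes outside the lists that serve adhesion, the actin skeleton, calcium entry and redox chemistry. These genes were chosen after their values were seen, so the grouping is a description. LAMB2, a chain of laminin, had a peak of score 129 at 124 bp downstream of the TSS. The peak at FYN, a kinase of adhesion signalling, scored 142 at 913 bp downstream, and that at SMTN, the smooth muscle protein smoothelin, scored 81 at 641 bp upstream. CCN5, a matricellular protein, had 65 at 132 bp upstream, and CD44, the hyaluronan receptor, had 60 at 289 bp upstream. LIMK1, which phosphorylates cofilin, had 56 at 817 bp downstream. ABLIM3, FLII and TNS2, of the same group, had lower scores of 54, 30 and 25. For calcium entry, the store sensor STIM1 had a score of 48 at 89 bp downstream and the channel TRPC6 had 75 at 399 bp downstream. Among redox enzymes, GSTK1, a glutathione transferase, scored 140 at 130 bp downstream, while GPX4, GSS, NQO2, GPX1 and GLO1 had low scores of 39, 36, 34, 27 and 21. NOX4, which makes hydrogen peroxide, scored 121.

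Genes of motile and primary cilia and of the transcription machinery were present as well, again by choice after the values were seen. CCDC39, needed for the axoneme of motile cilia, had a score of 129 at 45 bp downstream, and RSPH3, a radial spoke protein, had 81. OFD1 (56), POC1B (28) and TTC21B (27) belong to centrioles and the primary cilium. MED11, a subunit of Mediator, had a score of 155 at 134 bp downstream. LIN54 and ASH2L had 44 each, SNAPC1 had 41 and RRN3, an initiation factor of RNA polymerase I, had 39. The maintenance DNA methyltransferase DNMT1 had 109 over 400 bp of a CpG island in its first intron.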
